A study of Mus musculus with 4 samples.

Results

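The genes described here build ribosomes: 48 were listed, the transcription factor Myc and 47 genes for nucleolar proteins that make, modify, fold and assemble ribosomal RNA. The list names them by function; it was drawn up with earlier results of these data known. Of these, 47 were found in the count table of 21937 genes, Myc among them, and Noc2l was not analysed here. All 47 lay above a floor of 2 CPM (counts scaled to library size) averaged over the libraries, which 9926 genes passed. The smallest count of a member in any library was 789 reads.

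Reads per gene were counted in splenic CD4+ T cells of B6 mice aged 6 weeks, all stimulated with PMA, a phorbol ester, and ionomycin, a calcium ionophore, which together stand in for a signal through the T cell receptor. There was 1 library for each of 4 genotypes: wild type, Itch KO (Itchf/f Cd4cre, a floxed Itch allele cut by a Cre recombinase under the Cd4 promoter, which is active in the T cell lineage), WWP2 KO (WWP2-/-) and DKO (Itch and WWP2). Itch and WWP2 are ubiquitin ligases of the NEDD4 family. The labels do not give the alleles of the last library, the time of stimulation or the number of mice behind a library, and no unstimulated sample was analysed here.

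Total counts were between 17130747 and 17990392 per library. With 1 library per genotype no difference below has a replicate check, and no p-value was computed; ranges in brackets after a fold or level are 95% counting intervals, which cover the error of counting reads only. The read count of Wwp2 was 1363 (wild type), 1332 (Itch KO), 4 (WWP2 KO) and 1135 (DKO), so the last goes against its label and is called the library labelled double KO. Itch had 2083, 1914, 1996 and 2389 reads in the same order, which checks no label, because exons that were not deleted also add to the count. Of 6 genes marking CD4 T cells every one was read in every library, with summed levels from 1457 to 1681 CPM; Cd4 had 4069, 4262, 2901 and 9441 reads and Cd5 12091, 10798, 11863 and 5484. In bulk RNA, fewer cells of a type and less RNA per cell cannot be told apart.

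Ribosome assembly starts in the nucleolus, where RNA polymerase I transcribes the ribosomal RNA precursor. Small nucleolar RNAs (snoRNAs) bound to box C/D or box H/ACA proteins guide its modification, and a large complex called the small-subunit processome folds and cuts it, while other factors assemble the large subunit. Resting T cells make few ribosomes and raise nucleolar output when activated, a programme in which Myc is a well-known regulator.

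Myc, with its partner Max, binds the E-box, whose sequence CACGTG reads the same on both strands. That motif was looked for in RefSeq promoters of build GRCm38.p6, each from 250 bases before to 50 bases after an annotated start; 39 of the 47 members had an entry. It was found for 8 of the 39 (20.5%), against 12.8% of 7185 genes above the 2 CPM floor and 8.09% of all 27025 genes in that promoter set. A gene counted if any of its promoters held the motif. The groups had 42, 9151 and 32851 promoters, so the number searched per gene differed. In the 250 bases before the start the shares were 7.69%, 10.7% and 6.86%; 5 of the 8 matches thus lay after the start. The 8 were Nop2, Dhx33, Utp18, Pes1, Tsr1, Ltv1, Utp20 and Wdr43. The 3 with the motif before the start are shown as the clearest examples, as the 100 bases that end just before it, 5′ to 3′ on the gene's strand, with the E-box in capitals. They are Nop2 at chr6:125131783-125131882 on the plus strand, with the motif beginning at position -60 from the start, Dhx33 at chr11:71004433-71004532 on the minus strand, at -35, and Utp18 at chr11:93885767-93885866 on the minus strand, at -20.
Nop2: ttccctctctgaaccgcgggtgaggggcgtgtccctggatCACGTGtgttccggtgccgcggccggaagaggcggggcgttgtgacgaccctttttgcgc
Dhx33: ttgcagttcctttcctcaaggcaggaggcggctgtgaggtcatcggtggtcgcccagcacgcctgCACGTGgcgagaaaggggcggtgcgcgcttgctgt
Utp18: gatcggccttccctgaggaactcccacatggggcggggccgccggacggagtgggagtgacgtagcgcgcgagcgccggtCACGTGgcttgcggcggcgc
A match is a description of these letters and shows neither binding nor a cause.

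All 47 genes were lowest in the library labelled double KO, while both single knockouts stayed within 1.5-fold of wild type, Myc in Itch KO only just. Together they took 1.93% (wild type), 2.05% (Itch KO), 1.84% (WWP2 KO) and 1.05% (library labelled double KO) of the reads. Without Ncl and Npm1, the most heavily read members, the shares were 1.35%, 1.46%, 1.30% and 0.778%. For comparison, 40.6% of all 9926 genes had their lowest level in that library. The counting intervals of all 47 ratios to each of the other 3 libraries lay below 1, which held for 29.9% of all genes. A distance of at least 1.5-fold below every other library was reached by 39 members and by 10.5% of all genes. The 8 that did not reach it were Myc, Utp6, Noc4l, Bms1, Nop56, Nop58, Bop1 and Rrp1b. A distance of 2-fold below every other library was reached by 7 members, Polr1b, Utp20, Heatr1, Dkc1, Ncl, Wdr12 and Dhx33, and by 3.39% of all genes.

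**Figure D1:**
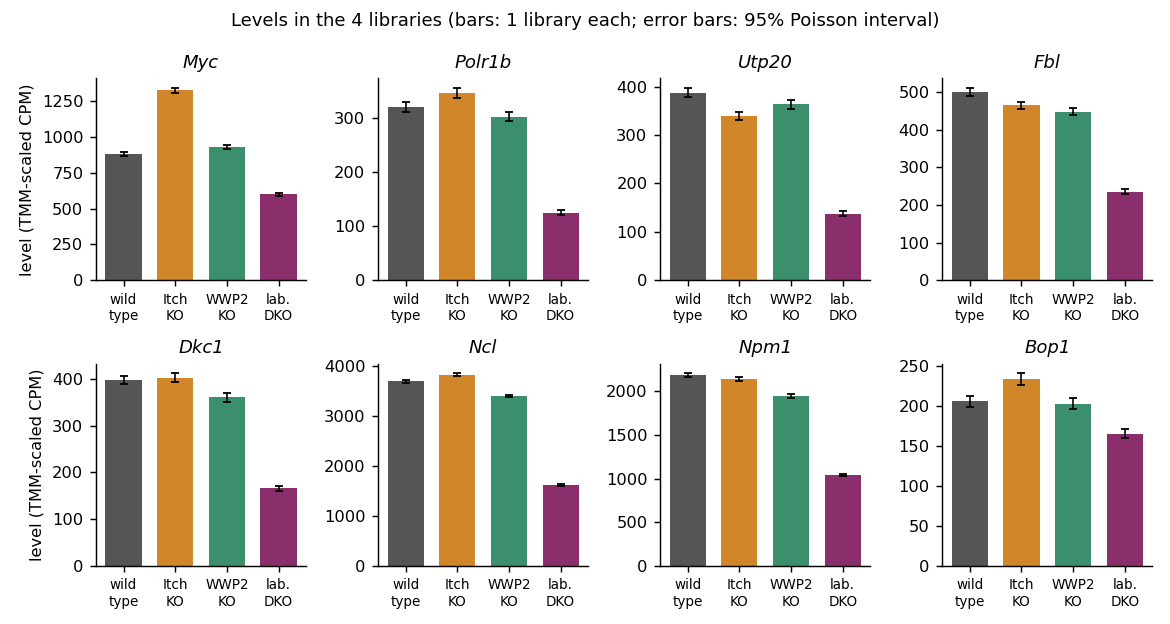
Levels of 8 members in the 4 libraries, in CPM after TMM scaling, with 1 bar per library (lab. DKO is the library labelled double KO) and 95% Poisson intervals as error bars. The last bar is the lowest in every panel. By fold, its gap to wild type is smallest for Bop1 (165.7 against 206.2 CPM) and largest for Utp20 (137.3 against 387.6 CPM). Of these genes Myc stands farthest above wild type in Itch KO, at 1322 CPM against 882.

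Against wild type, 15 of the 47 were at least 2-fold lower in the library labelled double KO (percent of all genes called so: 6.34%) and 42 were at least 1.5-fold lower (17.5%). None of the 47 was at least 1.5-fold higher, where 20.5% of all genes were. The median log2 ratio of the members was -0.87, beside -0.03 over all genes. The middle 50% of their log2 ratios spanned 0.29, against 0.86 for all genes above the 2 CPM floor and 0.20 for 75 cytosolic ribosomal protein genes. The members ranged from -1.496 for Utp20 to -0.32 for Bop1. Many sat close to the 2-fold line, with Rrp12 at -1.01 and Nhp2 at -1.003 just past it, and Polr1a at -0.97 and Wdr43 at -0.96 just short of it.

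Myc itself differed from the other members in Itch KO. It had 15294 (wild type), 22929 (Itch KO), 15930 (WWP2 KO) and 11119 (library labelled double KO) reads, or 882, 1322, 929 and 598 CPM. Itch KO was thus the high library and the library labelled double KO the low one. Against wild type Myc was 1.499-fold higher in Itch KO (1.47 to 1.53) and 1.47-fold lower in the library labelled double KO (1.44 to 1.51). The 46 other members had a median log2 ratio of only 0.06 in Itch KO, and none reached the log2 ratio of 0.58 seen for Myc. Set against Itch KO, the library labelled double KO had 2.21-fold less Myc (2.16 to 2.26).

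RNA polymerase I was represented by 4 subunits, of which Polr1b stood farthest from wild type. Polr1b, which with Polr1a forms the catalytic centre, had 5566 (wild type), 6025 (Itch KO), 5190 (WWP2 KO) and 2332 (library labelled double KO) reads. The last library lay far below the other 3, which were close together, and its level was 2.56-fold below wild type (2.44 to 2.69). Polr1a had 4557, 4379, 4485 and 2494 reads in the same order, 1.96-fold lower in the last (1.86 to 2.06). Polr1c, which RNA polymerase III also uses, was 1.71-fold lower (1.61 to 1.82) and Polr1e 1.80-fold lower (1.65 to 1.97). The 9 other genes of the polymerase I machinery above the floor had a median of -0.20. Of these, 1 was at least 2-fold lower (6.34% of all genes) and 0 were higher (12.3%). That gene was the subunit gene Cd3eap, with 1487 wild-type reads and 678 in the last library. The initiation factor gene Rrn3 had a log2 ratio of -0.69, while the subunit genes Polr1d and Znrd1 were at 0.18 and 0.35. The polymerase I list was thus mixed.

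Genes of small-subunit assembly numbered 15, with a median log2 ratio to wild type of -0.93 in the library labelled double KO. Of these, 4 were at least 2-fold lower (6.34% of all genes). Utp20, a very large scaffold protein of the processome, had 6720 (wild type), 5882 (Itch KO), 6225 (WWP2 KO) and 2552 (library labelled double KO) reads and was 2.82-fold lower in the last than in wild type (2.70 to 2.96). Heatr1, needed for both polymerase I transcription and early processing, had 13757, 13151, 12507 and 6473 reads, 2.28-fold lower in the last (2.21 to 2.35). Both genes showed 3 libraries close together and 1 far below. The other 2 past 2-fold were Nol6, a processome component, at 2.12-fold (2.03 to 2.21), and Rrp12, an export factor of the pre-40S particle, at 2.01-fold (1.92 to 2.11).

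The rest of this group ran from Wdr43 at a log2 ratio of -0.96 to Utp6 at -0.54. Wdr43, Wdr75 (-0.95) and Utp15 (-0.66) belong to the subcomplex that joins the precursor first, and Utp18 (-0.93) and Utp6 to a neighbouring one. Rrp9, the protein particular to the U3 snoRNA, was at -0.95. Nop14 (-0.77) and Noc4l (-0.59) are partners in 1 complex. The GTPase gene Bms1 was at -0.58. The late factors of the small subunit, Tsr1 (-0.82) and Ltv1 (-0.75), were lower as well, so early and late factors shared the direction.

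The snoRNP proteins split by gene more than by class. Fbl, the methyltransferase of box C/D particles, had 8675 (wild type), 8062 (Itch KO), 7684 (WWP2 KO) and 4372 (library labelled double KO) reads, 2.13-fold below wild type (2.05 to 2.21). Its partners, the scaffold genes Nop58 and Nop56, had smaller differences, of 1.65-fold (1.59 to 1.71) and 1.52-fold (1.48 to 1.57). In the box H/ACA class, Dkc1, the pseudouridine synthase, had 6903, 6985, 6186 and 3080 reads and was 2.40-fold lower in the last (2.30 to 2.51). Nhp2 was 2.01-fold lower (1.89 to 2.13) and Gar1 1.77-fold (1.65 to 1.91). Among these 3 members of each class the gene for the catalytic protein had the lowest ratio; Nop10, an H/ACA gene outside the members, was lower still, at -1.43.

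Ncl and Npm1, abundant nucleolar proteins that bind ribosomal RNA and chaperone assembly, carried the most reads of all members. Ncl had 64167 (wild type), 66429 (Itch KO), 58419 (WWP2 KO) and 30169 (library labelled double KO) reads, 2.28-fold lower than wild type (2.25 to 2.31). Npm1 had 37844, 37163, 33322 and 19314, 2.10-fold lower (2.06 to 2.14); it has processed pseudogenes, so some of its reads may be assigned elsewhere. Nolc1, a phosphoprotein that binds snoRNPs, was 1.83-fold lower (1.77 to 1.89). The intervals of Ncl and Npm1 are the narrowest of all members relative to their folds.

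Large-subunit genes numbered 13, with a median of -0.82, and 4 were at least 2-fold lower (6.34% of all genes). The 3 members of the PeBoW complex, which matures the large-subunit RNA, differed most from each other. Wdr12 had 2148 (wild type), 1888 (Itch KO), 1861 (WWP2 KO) and 1004 (library labelled double KO) reads, 2.29-fold lower (2.13 to 2.47). Pes1 was 1.74-fold lower (1.67 to 1.82). Bop1 had 3576, 4056, 3482 and 3079 reads and was 1.24-fold lower (1.19 to 1.31), the smallest difference of any member; its interval does not meet that of Wdr12. Noc3l (2.13-fold), Rrp15 (2.10-fold) and Nol8 (2.05-fold) were the others past 2-fold.

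The remaining large-subunit genes lay between log2 ratios of -0.95 for Mrto4 and -0.56 for Rrp1b. Rrs1, which helps to place the 5S particle, was at -0.87, and Nop2, an RNA methyltransferase, at -0.82. Nop16 (-0.82), Ebna1bp2 (-0.81) and the GTPase gene Gnl3, also called nucleostemin (-0.78), were close to them. Among the 5 RNA helicases, which unwind precursor RNA, Dhx33 had 3812 (wild type), 4080 (Itch KO), 3932 (WWP2 KO) and 1932 (library labelled double KO) reads, 2.12-fold lower (2.002 to 2.235). Ddx21, which acts in both polymerase I transcription and processing, had 21982, 23568, 20398 and 12935 reads, 1.82-fold lower (1.78 to 1.86). Ddx10 was at -0.84, and Ddx18 and Ddx56 were both at -0.75.

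**Figure D2:**
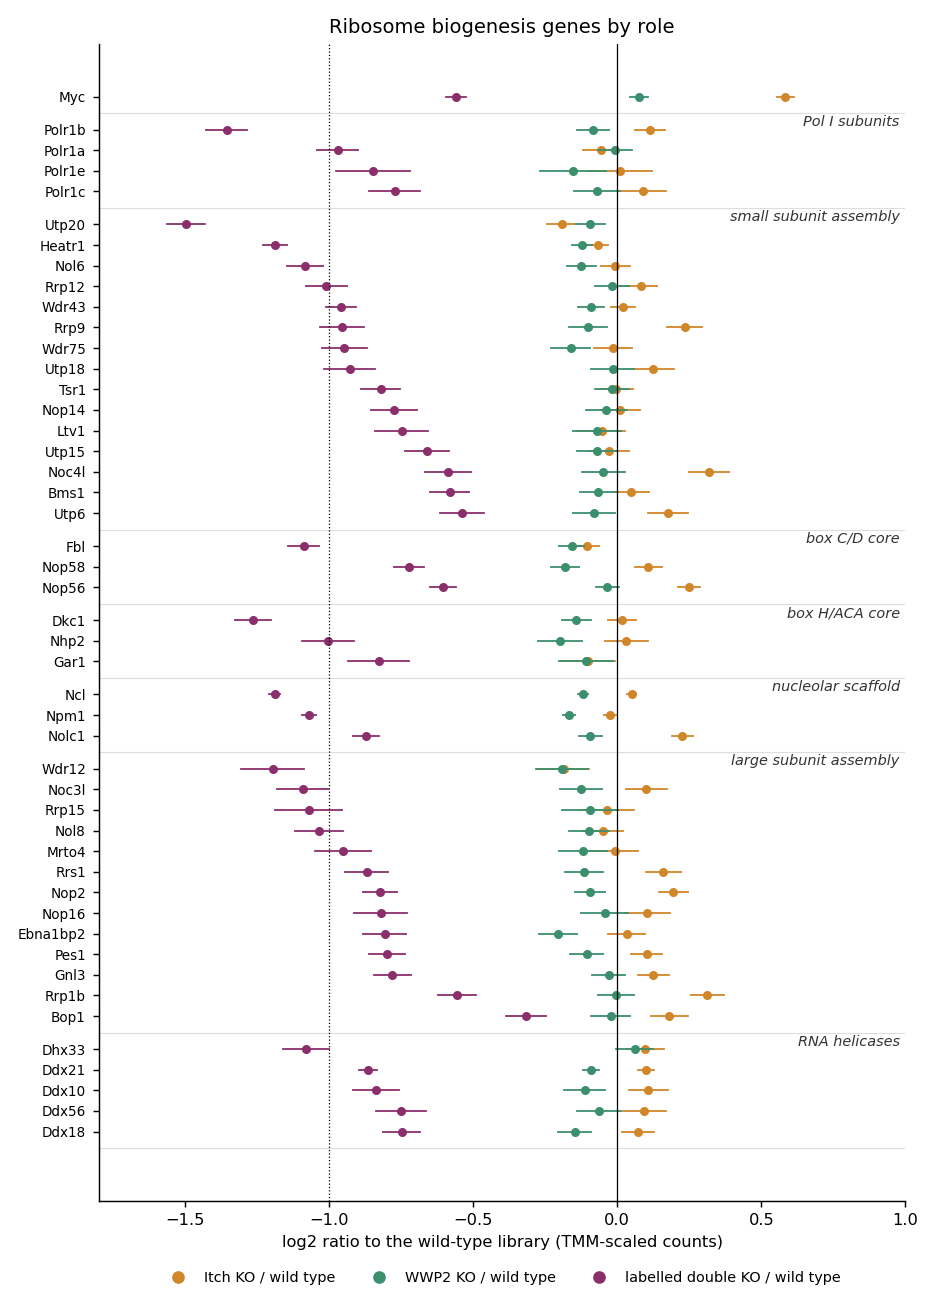
Log2 ratio of each of the 47 members to the wild-type library, grouped by role, with 95% counting intervals as lines; the dotted line marks 2-fold lower. Ratios in the library labelled double KO lie between -1.496 and -0.32, clear of those in Itch KO and WWP2 KO, which lie around 0 except for Myc in Itch KO at 0.58.

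In Itch KO the members stayed near the wild-type level, with a median log2 ratio of 0.07 beside -0.02 over all genes. No member was 1.5-fold higher (8.79% of all genes) or 1.5-fold lower (4.39%), but Myc lay at that line: its log2 ratio was 0.58 with TMM and 0.60, past 1.5-fold, with DESeq2 size factors. The counting interval lay above 1 for 25 members (25.8% of all genes) and below 1 for 6 (28.4%). Such small differences cannot be told apart from variation between libraries without replicates. After Myc, the highest were Noc4l at 1.25-fold (1.19 to 1.31), Rrp1b at 1.24-fold (1.19 to 1.29) and Nop56 at 1.19-fold (1.16 to 1.22). The lowest were Utp20 at 0.875-fold (0.845 to 0.906) and Wdr12 at 0.879-fold (0.825 to 0.935), also among the lowest in the library labelled double KO, which was set against the same wild-type library. All 5 helicase genes were slightly above wild type, between log2 ratios of 0.07 and 0.11. Itch KO was the highest of the 4 libraries for 32 members, against 17.6% of all genes, and wild type for the other 15, against 22.6%.

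In WWP2 KO the differences were smaller still but mostly of 1 sign. The median log2 ratio was -0.09, beside -0.01 over all genes, and 45 of 47 members were below 0, as were 52.1% of all genes. No member was 1.5-fold higher (1.19% of all genes) or 1.5-fold lower (0.756%). For 30 members the counting interval lay below 1 (17.6% of all genes), and for 1, Myc, it lay above (14.5%). Ebna1bp2 was the lowest at 0.867-fold (0.828 to 0.909), followed by Nhp2 at 0.871-fold (0.826 to 0.919). Differences of this size depend on the scaling: with total counts 39 members were below 0, and the median over all genes was 0.02. Without replicates they cannot be told apart from variation between libraries.

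The library labelled double KO was also set against each single knockout, to see what it showed beyond them. Against Itch KO, 19 members were at least 2-fold lower (5.16% of all genes), 46 at least 1.5-fold lower (14.5%), and 0 at least 1.5-fold higher (19.5%). Polr1b was lowest, 2.77-fold down (2.64 to 2.91), and Bop1, at 1.41-fold (1.35 to 1.48), was the member short of 1.5-fold. The median was -0.95, beside 0.03 over all genes. Against WWP2 KO, 7 were at least 2-fold lower (6.05%), 40 at least 1.5-fold lower (16.8%) and 0 at least 1.5-fold higher (19.6%), with a median of -0.78 beside -0.03. Utp20 was lowest there, 2.64-fold down (2.53 to 2.77).

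A pair of these comparisons shares no library. Itch KO against wild type and the library labelled double KO against WWP2 KO would both, by their labels, show loss of Itch. All 47 members had a lower ratio in the latter, by a median of 0.86 on the log2 scale, as 47.3% of all genes did by any amount. The smallest gap was 0.47 and the largest 1.38, for Polr1b. For Polr1b the ratios were 0.11 and -1.27, for Myc 0.58 and -0.64, and for Utp20 -0.19 and -1.40. For 25 members the former ratio was above and the latter below 1 with both counting intervals clear of it, which held for 6.52% of all genes. All 47 intervals lay below 1 in the latter. These are therefore the same 25 members whose interval lay above 1 in Itch KO (25.8% of all genes), none by 1.5-fold. The difference between these comparisons was not tested, since each has 1 library a side.

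**Figure D3:**
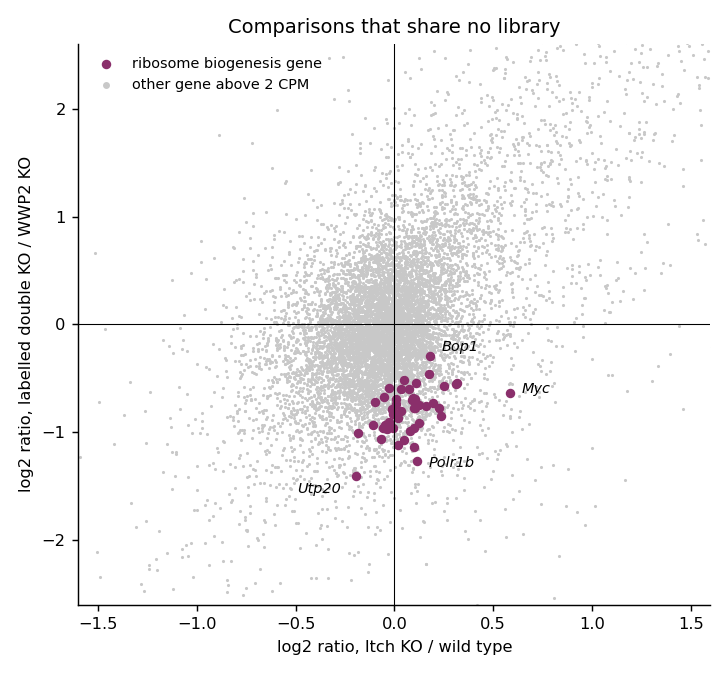
Log2 ratios of 9926 genes in Itch KO against wild type (horizontal) and in the library labelled double KO against WWP2 KO (vertical), which share no library; 419 genes lie outside the axes. The 47 members (large points) form a compact group below the horizontal line, from -0.29 for Bop1 to -1.40 for Utp20, and centred near 0 on the horizontal axis, with Myc to the right at 0.58.

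Other genes of ribosome assembly, 77 beyond the members, were lower too, over a wider range. Their median ratio of the library labelled double KO to wild type was -0.69. Of these, 12 were at least 2-fold lower (6.34% of all genes), 46 at least 1.5-fold lower (17.5%) and 0 at least 1.5-fold higher (20.5%). Mdn1, a giant ATPase of large-subunit maturation, was the lowest at -1.499, with 15316 (wild type), 13806 (Itch KO), 18101 (WWP2 KO) and 5808 (library labelled double KO) reads. Nop10, the fourth protein of the H/ACA particle, followed at -1.43. At the other end were Sbds, which acts on cytoplasmic large subunits, at 0.07, and Riok1, a kinase of late small-subunit maturation, at 0.28. The 12 genes of the RNA exosome, which trims precursor ends, had a median of -0.59. Of these, 1 was at least 2-fold lower (6.34% of all genes): Dis3, a catalytic subunit, at -1.07. Exosc3 was above 0, at 0.23.

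The protein components of the ribosome lay nearer to wild type than its assembly factors by their medians. Of 75 cytosolic ribosomal protein genes above the floor, 0 were 1.5-fold lower or higher than wild type in the library labelled double KO, with a median of -0.33; Rps24 was at -0.57 and Rps27 at 0.11. Many of these genes have near-identical pseudogene copies. The 76 mitochondrial ribosomal protein genes had a median of -0.25. Of these, 12 were at least 1.5-fold lower (17.5% of all genes) and 2 higher (20.5%). The 20 cytosolic transfer RNA synthetase genes had a median of -1.13. At least 2-fold lower were 12 (6.34% of all genes), and 15 were at least 1.5-fold lower (17.5%). They ranged from -1.47 for both Cars and Lars to -0.10 for Farsa and 0.10 for Qars, wider than the members. In Itch KO their median was -0.41, beside 0.07 for the members; these differences between lists were not tested.

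Myc target genes outside ribosome assembly were described by a list of 32 metabolic, chaperone and translation genes. Their median ratio of the library labelled double KO to wild type was -0.88, close to that of the members. Of these, 11 were at least 2-fold lower (6.34% of all genes) and 0 higher (12.3%). Shmt2, a mitochondrial enzyme of one-carbon metabolism, was the lowest at -1.67, and the amino acid transporter gene Slc7a5 was at -1.45. Ldha, which encodes lactate dehydrogenase, stood apart at 0.86. The 9 measured genes of the Myc network, Max and related factors, had a median of 0.68. At 1.5-fold, 5 were higher (20.5% of all genes) and 2 lower (17.5%). At 2-fold, 2 were higher (12.3%) and 0 lower (6.34%). The 2 past 2-fold encode repressors: Mxd1 had 972 (wild type), 1308 (Itch KO), 980 (WWP2 KO) and 2890 (library labelled double KO) reads, and Mxd3 had 9, 34, 4 and 116. The repressor gene Mnt was at -0.68 and Mga at -0.67.

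**Figure D4:**
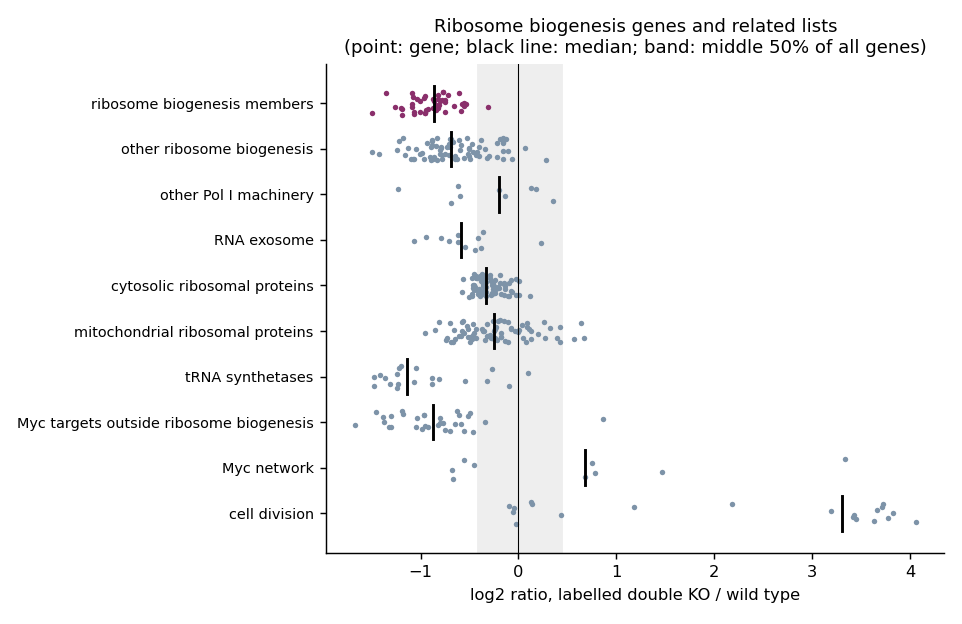
Log2 ratio of single genes (points), comparing the library labelled double KO to wild type, for the 47 members and 9 related lists, with the median of each list as a black line and the middle 50% of all genes as a grey band. The members have a median of -0.87, the cytosolic ribosomal proteins -0.33 and the cell division genes 3.30. Single cell division genes run from -0.10 to 4.06.

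Other gene groups also differed in the same library. Among 20 cell division genes, 13 exceeded the wild-type level at least 2-fold there (12.3% of all genes), with a median log2 ratio of 3.30. In Itch KO 11 did so (4.89%), with a median of 1.80, beside 0.07 for the members. Set against Itch KO, the library labelled double KO had 12 of the 20 at least 2-fold higher (911 of all 9926 genes). The summed level of the list was 1025 CPM (wild type), 1318 (Itch KO), 971.5 (WWP2 KO) and 1828 (library labelled double KO). The list was split. Aurkb, a mitotic kinase, had 21, 123, 22 and 409 reads. The replication genes Mcm6 (2572, 2639, 2460 and 2578 reads) and Pcna (5460, 6056, 4979 and 5615) had log2 ratios of -0.10 and -0.06 in the last library. Of 15 immediate early genes, with a median of 0.51, 5 were at least 2-fold higher (12.3% of all genes) and 2 lower (6.34%). The higher ones were Ier3 (3.06) and the transcription factor genes Jun (1.84), Fosb (1.80), Fos (1.597) and Egr1 (1.08). The lower ones were the activation marker gene Cd69 (-1.34) and the phosphatase gene Dusp2 (-1.15). In Itch KO the 15 genes had a median of 0.65 against wild type. There, 9 were at least 1.5-fold higher (8.79% of all genes) and 0 lower (4.39%). These genes' part in the result was not tested.

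Markers of other cell types were low, with exceptions. With libraries in the same order, the summed levels were 3.46, 4.32, 2.68 and 1.56 CPM for 8 B cell genes, of which Pax5 was at 0 in every library, and 5.07, 8.65, 4.14 and 22.8 for 8 monocyte, macrophage or dendritic cell genes, where Cd68 made up 354 of 424 reads in the last library. They were 17.7, 19.7, 12.0 and 17 CPM for 5 NK cell genes, and 7.44, 15.9, 6.53 and 7.05 for 2 CD8 T cell genes. The NK cell genes went in different directions: between wild type and the library labelled double KO, Klrb1c had 88 and 12 reads, Klrd1 115 and 24 and Klrk1 63 and 23, while Nkg7 had 41 and 254. For 8 mast cell or basophil genes they were 24.9, 10.9, 28.9 and 5.38, nearly all from Kit, with Cma1, Fcer1a, Ms4a2 and Tpsb2 at 0 in every library. The 4 neutrophil genes summed to at most 1.18 CPM, with Elane and S100a8 at 0 throughout, and the 4 erythroid genes to at most 0.377, with Hba-a1 and Hbb-b1 at 0 throughout. The 3 plasma cell genes summed to 14.1, 54.9, 14.2 and 205 CPM, nearly all from Prdm1, which effector T cells also express and which had 228, 889, 211 and 3620 reads. Their part in the result was not tested.

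Features that did not enter the choice of members were also compared. In the RefSeq annotation of GRCm38.p6, 8 of the 47 members (17%) had an annotated snoRNA gene within their span, against 3.25% of 8719 matched genes above the floor. These hosts were Nop56, Nop58, Ncl, Gnl3, Wdr43, Ddx56, Tsr1 and Dkc1, with 22 snoRNA genes in all. Their median log2 ratio of the library labelled double KO to wild type was -0.80, beside -0.87 for the 39 members without one. The 8 members with an E-box in the promoter had a median of -0.88, beside -0.85 for the 31 without. The members lie on 16 chromosomes.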

How the data were processed

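The values were raw counts of reads per gene symbol, deposited by the authors in 1 table of 4 libraries without normalization. The submitters' processing notes list TopHat 1.4.1, Bowtie 1.0.0, HTSeq 0.7.1 and the mm9 build. Annotation and strand setting were not given in the sources used here, so overlapping, antisense and near-identical genes can share or lose reads. Counts were scaled by TMM factors (0.983 to 1.03) with edgeR 4.0.16 in R 4.3.3; ratios were computed in Python 3.11.15 with scipy 1.17.1. Log2 ratios carry a prior count of 2; folds carry none, with exact conditional binomial 95% intervals, and levels have exact Poisson ones. The labels name no molecular identifiers, so reads need not be independent molecules. A gene counted as 2-fold or 1.5-fold different when its log2 ratio and mean level (at least 2 CPM) passed and its interval excluded 1. The 2-fold rule was tried on simulated counts that held counting error only. These had no variation between libraries, so the trial cannot show how often such variation would pass the rule. All members could be named whatever their values; of each other list, the 2 highest and 2 lowest by the ratio of the library labelled double KO to wild type, though some genes of the lists are not reported here. Single genes of the marker lists, and Fos, Fosb and Egr1, were named after their values were seen. The members and lists were chosen with earlier results of these data known. RefSeq tables of GRCm38.p6 gave the promoters and snoRNA neighbours; no coordinate of the mm9 counts is printed. Other scalings (DESeq2 1.42.0 size factors, total counts, upper quartile), floors, prior counts and fold thresholds were tried.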

Additional observations from a re-analysis of the deposited data

Results flagged for a closer look

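For 25 of the 47 members the log2 ratio was above 0 in Itch KO against wild type and below 0 in the library labelled double KO against WWP2 KO. Both counting intervals were clear of 1, and 6.52% of all genes met the same condition. All 47 members were lower in the latter, so only the Itch KO side sets this number. There the interval lay above 1 for the same 25 members and for 25.8% of all genes, and no member reached 1.5-fold with TMM. By their labels both comparisons show loss of Itch, without and with loss of WWP2, and they share no library. The difference was not tested, because each side of each comparison is 1 library, and the Wwp2 reads of the library labelled double KO go against its label.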

How the results depend on the processing

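Under all 4 scalings, each of the 47 members was lowest in the library labelled double KO. The 2-fold counts of 15 (against wild type), 19 (against Itch KO) and 7 (against WWP2 KO) became 42, 46 and 40 with a 1.5-fold rule. Over all genes, 629, 512 and 601 became 1740, 1435 and 1665. Scaling to total counts gave 10, 12 and 6 members, and 529, 421 and 546 of all genes. Rrp12, Nhp2, Npm1, Rrp15 and Nol8 then missed 2-fold against wild type. DESeq2 size factors gave 15, 21 and 7 members, and 636, 545 and 598 of all genes. Upper quartile factors gave 15, 22 and 9 members, and 679, 554 and 651 of all genes. The low filters and the prior count changed none of these member counts. In Itch KO, 32 members were above 0 with TMM, as were 4578 of all 9926 genes. With DESeq2 size factors 36 members were above 0, for which all genes were not counted. With these factors Myc also passed 1.5-fold higher (log2 ratio 0.60). The E-box was found for 3 members rather than 8 when only the bases before the start were searched. No paired analysis was possible because each genotype has 1 library. Depth did not limit the members, each of which had at least 789 reads in every library; the missing spread between libraries does.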
